A study of Mus musculus with 12 samples.

Results

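The fibroblast receptors and matrix glycoproteins described here are 9 genes, Pdgfra, Pdgfrb, Dcn, Bgn, Fn1, Sparc, Postn, Lox and Fbln5, out of 54582 gene symbols shared by both deposited count tables. They were chosen by symbol with earlier results of these data known, as were the lists of related and marker genes below. Shares called among them are therefore set beside those of all genes as a description only. All 9 were matched in both tables and passed the filter on low counts in every comparison. Polyadenylated RNA was sequenced from primary mouse bone marrow-derived macrophages, cells grown from tibial marrow, with a label of 6 to 8 weeks that was read as the age of the mice. Each of 4 groups had 3 libraries. The libraries labelled KO + AC came from mice written as Kif13b-/- in the design text and as Kif13b knock down in the sample labels, and their macrophages were kept for 90 min with 5 apoptotic Jurkat cells per macrophage. Jurkat is a human T cell leukaemia line. The WT + AC libraries came from wild type macrophages given the same apoptotic cells, and the KO and WT libraries came from both genotypes without apoptotic cells. Kif13b encodes a kinesin, a motor that moves cargo along microtubules. Allele, mouse strain and any Cre promoter were not found in the labels or the design text, which also leave unsaid if a group's libraries are separate mice or cultures. The p-values below therefore measure the spread between these libraries, which may be technical. Medium serum was labelled 12, 13 and 14% for the KO and 10, 10 and 11% for the WT libraries. Those percentages look like a filled-down column and are in doubt, and if they are right, serum and genotype cannot be told apart.

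Mesenchymal cells carry the receptor tyrosine kinases PDGFRα and PDGFRβ, which bind platelet-derived growth factors and drive growth and migration. Decorin (Dcn) and biglycan (Bgn) are small leucine-rich proteoglycans that bind collagen and TGF-β. Fibronectin (Fn1) is a glycoprotein that cells assemble into fibrils through integrins, and macrophages make it too. SPARC and periostin (Postn) are matricellular proteins that bind collagen, lysyl oxidase (Lox) cross-links collagen and elastin, and fibulin-5 (Fbln5) organises elastic fibres. In marrow cultures grown for macrophages, such genes are used as markers of adherent stromal cells.

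Total counts ran from 17160248 to 17285594 in the libraries labelled KO + AC, from 17000976 to 17256902 in WT + AC, from 18351051 to 18770757 in KO and from 18256622 to 18461359 in WT. Kif13b, the check of the labels, was higher in the libraries labelled KO + AC than in WT + AC (1697, 1697 and 1721 against 1600, 1561 and 1634 counts, log2 0.13, edgeR adjusted p = 0.0261), which goes against the label. Without apoptotic cells it was lower in KO, with 281, 345 and 424 against 599, 546 and 535 counts (log2 -0.59, edgeR adjusted p = 0.0087). At 0.665 times the WT level, it was reduced there but not absent. In the joint fit Kif13b was also higher with apoptotic cells than without in both genotypes. The log2 difference was 1.23 in WT + AC against WT and 1.97 in KO + AC against KO. The apoptotic cells and the deposited table cannot be told apart in that rise. How far human RNA added to these counts was not tested, which limits Kif13b as a check of the labels with apoptotic cells. Since Kif13b goes against the label with apoptotic cells, directions between genotypes with apoptotic cells are given for the libraries as labelled. The macrophage label was matched by its markers: Lyz2, Cd68, Csf1r, Adgre1, Itgam, Fcgr1 and Mertk had counts in every library. They summed to 16575 to 16769.9 CPM (counts per 1e6 counts of the scaled library) in KO + AC, 13851 to 14782 in WT + AC, 26078 to 32799.5 in KO and 25793 to 27808 in WT. Libraries of one group lay closer together with apoptotic cells, where the common biological coefficient of variation was 0.0294, against 0.117 without. KO libraries 1 and 2 also stood apart by transcript length: across 12530 genes, the deviation of KO 1 from the mean of its table correlated with log2 exonic length at r = -0.53 and that of KO 2 at -0.30, against 0.32 for KO 3 and 0.20 to 0.37 for the WT libraries. Genes are not independent replicates, and these r describe the libraries only.

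Of the 9 genes, 5 had a genotype difference that changed between the conditions, and the 250 bases before their RefSeq transcription start are shown. These 5 were also the only ones of the 9 with a promoter entry in the reference used, so Dcn, Fn1, Lox and Pdgfrb could not be shown. RefSeq annotation on GRCm38.p6 gave the starts, with each sequence 5′ to 3′ on the strand of the gene and matches to the searched motifs in capitals.
Pdgfra (chr5:75152001-75152250, plus strand): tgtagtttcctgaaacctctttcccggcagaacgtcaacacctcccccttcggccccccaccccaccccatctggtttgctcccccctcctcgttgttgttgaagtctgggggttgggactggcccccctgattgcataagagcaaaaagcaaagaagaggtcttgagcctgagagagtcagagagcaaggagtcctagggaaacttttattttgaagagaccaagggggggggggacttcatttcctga
Bgn (chrX:73483351-73483600, plus strand): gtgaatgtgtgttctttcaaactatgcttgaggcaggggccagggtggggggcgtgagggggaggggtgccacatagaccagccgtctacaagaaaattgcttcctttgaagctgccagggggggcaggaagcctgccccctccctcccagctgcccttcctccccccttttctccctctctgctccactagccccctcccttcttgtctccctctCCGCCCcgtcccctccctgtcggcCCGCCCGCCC
Sparc (chr11:55420081-55420330, minus strand): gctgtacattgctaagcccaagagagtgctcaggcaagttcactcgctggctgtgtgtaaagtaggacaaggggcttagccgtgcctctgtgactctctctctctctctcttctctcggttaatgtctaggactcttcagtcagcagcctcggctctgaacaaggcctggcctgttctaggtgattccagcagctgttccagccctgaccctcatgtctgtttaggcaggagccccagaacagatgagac
Postn (chr3:54360857-54361106, plus strand): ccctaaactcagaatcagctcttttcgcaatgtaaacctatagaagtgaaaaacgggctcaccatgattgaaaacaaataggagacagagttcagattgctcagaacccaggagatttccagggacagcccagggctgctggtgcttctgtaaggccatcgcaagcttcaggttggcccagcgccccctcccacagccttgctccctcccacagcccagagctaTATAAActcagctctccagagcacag
Fbln5 (chr12:101819120-101819369, minus strand): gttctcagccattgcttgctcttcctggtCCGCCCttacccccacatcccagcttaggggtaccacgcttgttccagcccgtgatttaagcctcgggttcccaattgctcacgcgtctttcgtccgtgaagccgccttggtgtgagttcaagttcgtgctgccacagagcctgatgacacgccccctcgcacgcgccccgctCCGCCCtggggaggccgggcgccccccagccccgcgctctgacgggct
The motifs were searched on both strands: the TATA box as TATAAA, the AP-1 site as TGANTCA, the GC box as GGGCGG and the CArG box by its consensus. Bgn held 3 GC box matches, of which 2 overlap at the end of the window, and Fbln5 held 2, while the capitals in Postn mark a TATA box match 26 to 21 bases before the start. Pdgfra and Sparc held no match in this window. Among all 32851 promoters of the table, 32.7% hold the GC box letters, 12.4% the TATA box, 6.75% the AP-1 site and 1.47% the CArG box. No motif was shared by all 5 windows, and a match is a description of letters, not of a bound site. The RefSeq start of Sparc lies 3103 bases from the start of its gene in GENCODE, so its window is upstream of 1 of its transcripts.

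In GRCm38, Pdgfra lies on the plus strand of chromosome 5 (75152292 to 75198215), Dcn on that of chromosome 10 (97479609 to 97518143), Bgn on that of chromosome X (73483602 to 73495933) and Postn on that of chromosome 3 (54361109 to 54391037). Sparc lies on the minus strand of chromosome 11 (55394500 to 55423183), Fn1 on that of chromosome 1 (71585520 to 71653200) and Fbln5 on that of chromosome 12 (101746565 to 101819055). Pdgfrb (plus strand, 61045150 to 61085061) and Lox (minus strand, 52516067 to 52529867) are both on chromosome 18. The counts cover whole genes, with the strand setting of the counting not given. Genes on the opposite strand overlap 2.50% of the exonic bases of Fn1 (Apol7d) and 0.628% of those of Lox, and 6.50% of those of Pdgfra are overlapped by other genes, so reads from these stretches may be shared.

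Per kilobase of exonic sequence, the order of the genes differed between libraries with and without apoptotic cells. In the libraries labelled KO + AC the scaled level was 224 CPM per kb for Fn1 and 18.9 for Sparc, followed by Lox at 6.00, Bgn at 5.17, Dcn at 4.45, Pdgfra at 2.41, Pdgfrb at 1.25, Fbln5 at 0.151 and Postn at 0.125. WT + AC libraries had Fn1 at 242 CPM per kb, Sparc at 29.3, Bgn at 7.35, Dcn at 5.60, Lox at 5.53, Pdgfra at 3.89, Pdgfrb at 1.21, Fbln5 at 0.187 and Postn at 0.180. Among neighbours in these orders, Bgn and Dcn overlapped over the libraries labelled KO + AC, Dcn and Lox over WT + AC, and Fbln5 and Postn over both. Without apoptotic cells Sparc and Fn1 were the highest, with Sparc first in KO at 122 CPM per kb, above Fn1 at 77.8. In WT, Fn1 stood at 91.9 and Sparc at 81.2 CPM per kb, and their libraries overlapped. Next came Dcn (22.3 in KO and 20.1 in WT), Bgn (16.3 and 12.9), Pdgfra (4.97 and 4.76) and Lox (2.04 and 1.45), while Fbln5, Postn and Pdgfrb had at most 0.501 in KO and 0.302 in WT. Within KO, the libraries of Dcn overlapped those of Bgn, those of Fbln5 overlapped Postn, and those of Postn overlapped Pdgfrb. Within WT, Postn overlapped Pdgfrb and Pdgfrb overlapped Fbln5.

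**Figure D1:**
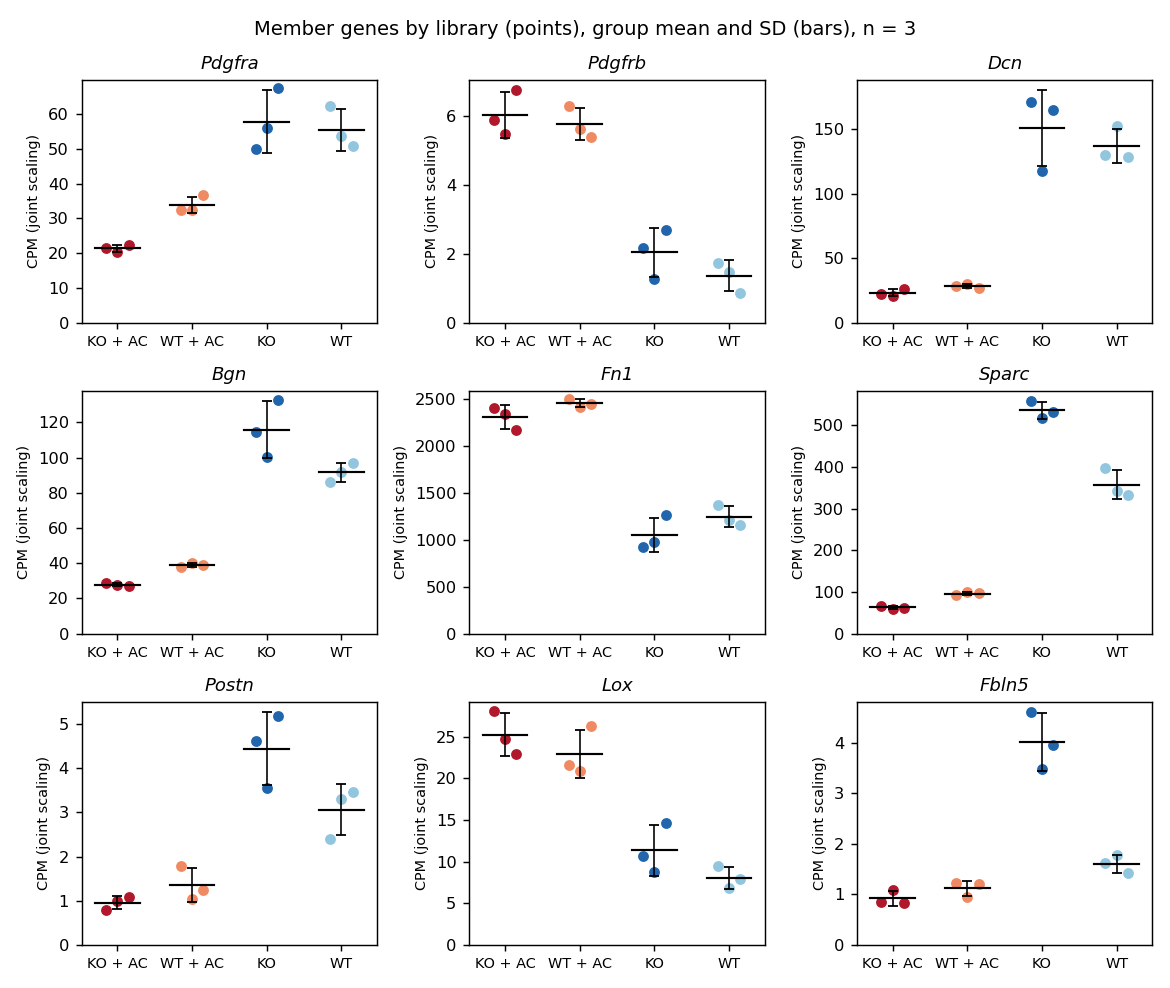
Scaled counts (CPM, y axis, from the joint fit of 12 libraries) of each of the 9 genes in every library, with groups KO + AC, WT + AC, KO and WT from left to right. Points are libraries, bars are group means and error lines are 1 SD (n = 3 each). Sparc averaged 63.1 CPM in KO + AC, 96.3 in WT + AC, 536 in KO and 358 in WT.

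Without apoptotic cells, Sparc and Fbln5 were higher in the KO libraries than in WT, by 1.50-fold and 2.50-fold, and none of the 9 genes was called lower. A gene was called at a Benjamini-Hochberg adjusted p under 0.05 in edgeR's quasi-likelihood test over 12640 genes. Thus 2 of 9 were called higher and 7 were not called, where 7.94% of all tested genes were called higher, 8.24% lower and 16.2% in either direction. The KO libraries lay wholly above the WT libraries for 4 of 9 genes (Sparc, Fbln5, Bgn and Postn), against 16.4% of all genes, and below them for none, against 17.2% (33.6% in either direction). On the log2 scale, the median difference was 0.49 over the 9 genes and 0.02 over all genes. In bulk RNA, more cells of a type and more RNA per cell cannot be told apart.

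The PDGF receptors showed no called difference without apoptotic cells. Pdgfra had 43.0, 48.5 and 57.9 CPM in KO against 53.3, 46.1 and 43.7 in WT. These ranges overlapped, and the log2 difference was 0.06 (95% interval -0.21 to 0.34, edgeR adjusted p = 0.774), turning to -0.11 without KO library 3 and -0.039 with library totals as the scaling. Pdgfrb was near the detection limit, with 32, 19 and 44 counts in KO and 29, 24 and 14 in WT, or 1.76 ± 0.608 and 1.17 ± 0.380 CPM (SD, n = 3 each). The interval of its log2 difference of 0.59 ran from -0.03 to 1.22 (edgeR adjusted p = 0.174). Their ligand gene Pdgfa, one of 4 PDGF ligand genes, was higher in KO, at 21.4 ± 1.26 CPM against 11.6 ± 0.693 (log2 0.87, edgeR adjusted p = 0.000391, n = 3 each). Of the 3 ligand genes tested, 1 was higher and 0 lower (median log2 -0.01).

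Among the proteoglycans, biglycan lay higher in every KO library but missed the threshold. Bgn had 98.5, 86.9 and 114 CPM in KO against 73.8, 79.1 and 83.5 in WT. No KO library overlapped a WT library, and the log2 difference was 0.34 (SE 0.13, 95% interval 0.08 to 0.60, edgeR adjusted p = 0.064, and 0.0466 without KO library 2). Dcn had 147, 101 and 141 CPM in KO and 112, 131 and 110.4 in WT, so KO library 2 lay below all WT libraries and the other 2 above them (log2 0.14, edgeR adjusted p = 0.48). Of 9 other small leucine-rich proteoglycan genes, 4 could be tested and 2 were higher (median log2 0.46). These were lumican, Lum (2.85 ± 0.619 CPM in KO and 1.26 ± 0.510 in WT, log2 1.18, edgeR adjusted p = 0.00916, n = 3 each), and fibromodulin, Fmod (9.85 ± 1.27 and 6.52 ± 0.453 CPM, log2 0.60, edgeR adjusted p = 0.0169).

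Of the matrix glycoproteins Fn1, Sparc and Postn, Sparc alone was called without apoptotic cells in the separate fit. It had 481, 447 and 456 CPM in KO against 342, 294 and 287 in WT. All 3 KO libraries were above all WT libraries, with a log2 difference of 0.58 (SE 0.13, 95% interval 0.33 to 0.84, edgeR adjusted p = 0.00596). The call ended without WT library 3 (log2 0.54, edgeR adjusted p = 0.0556). Fn1 had 801, 842 and 1085 CPM in KO against 1176, 1044 and 1001 in WT, with KO library 3 inside the WT range (log2 -0.24, edgeR adjusted p = 0.236). Without KO library 3 it was called lower in KO (log2 -0.43, edgeR adjusted p = 0.00523). Postn was low, with 68, 53 and 85 counts in KO and 40, 54 and 56 in WT. Scaled to 3.98, 3.07 and 4.44 CPM in KO against 2.06, 2.84 and 2.99 in WT, the groups did not overlap, yet the log2 difference of 0.55 was not called (95% interval 0.11 to 0.98, edgeR adjusted p = 0.0744). It was called in the joint fit (log2 0.55, edgeR adjusted p = 0.0421) and with a length and GC correction (log2 1.16, edgeR adjusted p = 0.00135).

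Some genes related to these glycoproteins were called as well, where 7.94% of all tested genes were called higher and 8.24% lower. The receptor and TGF-β lists had median differences near that of all genes (log2 0.02). Among 7 other SPARC family genes 2 could be tested (median log2 0.46), and Fstl1, a secreted follistatin-like glycoprotein, was higher in KO (97.8 ± 13.3 against 62.8 ± 3.81 CPM, log2 0.64, edgeR adjusted p = 0.00329, n = 3 each). Fibronectin and periostin receptor genes had 0 of 7 tested members higher and 2 lower (median log2 0.06). Those were the integrin subunits Itga4 (14.0 ± 3.33 CPM in KO and 21.8 ± 2.51 in WT, log2 -0.64, edgeR adjusted p = 0.0129) and Itgav (38.0 ± 8.95 and 55.3 ± 1.39 CPM, log2 -0.54, edgeR adjusted p = 0.016). Tenascins and other matricellular genes had 2 of 5 tested members higher (median log2 0.33), tenascin-C (Tnc, 11.4 ± 3.68 CPM in KO and 6.24 ± 0.497 in WT, log2 0.88, edgeR adjusted p = 0.00576) and thrombospondin-2 (Thbs2, 2.13 ± 0.413 and 0.314 ± 0.100 CPM, log2 2.74, edgeR adjusted p = 3.19e-05). Of 9 TGF-β genes tested, 2 were higher and 1 lower (median log2 0.01). Ccn2, a matrix-associated TGF-β target, was higher in KO (7.33 ± 0.974 and 4.09 ± 0.268 CPM, log2 0.84, edgeR adjusted p = 0.0038), and the receptor gene Tgfbr1 was lower (67.8 ± 12.2 and 91.2 ± 9.73 CPM, log2 -0.43, edgeR adjusted p = 0.0356).

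Fbln5 had the largest fold of the 9 genes in KO. Its counts were 68, 52 and 65 in KO against 27, 29 and 23 in WT, or 3.98, 3.01 and 3.40 CPM against 1.39, 1.53 and 1.23. The lowest KO library stood above the highest WT library, and the log2 difference was 1.32 (SE 0.23, 95% interval 0.85 to 1.79, edgeR adjusted p = 0.000944, range over all alternatives 2.26e-05 to 0.0377). Lox had 9.19, 7.52 and 12.6 CPM in KO against 8.12, 5.89 and 6.84 in WT. Here KO library 2 fell inside the WT range and the log2 difference of 0.49 was not called (95% interval 0.12 to 0.87, edgeR adjusted p = 0.0629), though it was called without KO library 2 (0.0241) or without WT library 1 (0.0489). With the replicate number as a block the adjusted p was 0.0339.

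Elastic fibre and cross-linking genes other than these had many higher members in KO. Of 12 tested fibulin and elastic fibre genes, 6 were higher and 0 lower (median log2 0.45), against 7.94% higher among all genes. Examples were Efemp2, or fibulin-4 (42.9 ± 4.59 CPM in KO and 30.7 ± 3.33 in WT, log2 0.48, edgeR adjusted p = 0.0187, n = 3 each), and the microfibril gene Mfap2 (2.52 ± 0.281 and 1.40 ± 0.258 CPM, log2 0.84, edgeR adjusted p = 0.0238). Other lysyl oxidases and procollagen processing genes had 3 of 6 tested members higher and 0 lower (median log2 0.45). They included Pcolce, an enhancer of procollagen C-proteinase (33.7 ± 2.39 and 19.5 ± 2.13 CPM, log2 0.79, edgeR adjusted p = 0.000783), and the lysyl oxidase-like enzyme gene Loxl1 (15.6 ± 0.930 and 8.76 ± 1.66 CPM, log2 0.83, edgeR adjusted p = 0.00219).

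Markers of other cell types differed in direction without apoptotic cells, where 7.94% of all tested genes were called higher and 8.24% lower. Fibroblast, smooth muscle, mesothelial and osteoclast sums lay wholly higher in KO. The marrow stroma and adipocyte sum, nearly all from the 1 gene Kitl, lay wholly lower. The 9 fibroblast markers outside the described genes, Col1a1, Col1a2, Col3a1, Thy1, Lum, Dpt, Pi16, Fbln2 and Cxcl12, summed to 623 to 822 CPM in KO against 422 to 545 in WT. Of the 8 that could be tested, 8 were higher (median log2 0.83), and Pi16 had no count in WT. The smooth muscle list (6 genes, mostly Acta2 and Des) summed to 199 to 273 CPM against 86.3 to 107, with 3 of 4 tested members higher. Mesothelial markers (5 of 6 matched) summed to 83.9 to 87.4 against 52.1 to 66.7 CPM, with 2 of 5 called higher (Upk3b and Lrrn4), while Msln and Krt19 lay lower in every KO library without a call (log2 -0.45 and -0.35). Endothelial sums overlapped, at 18.7 to 25.0 and 19.5 to 22.5 CPM, with 0 of 3 called. Osteoclast markers summed to 768 to 976 CPM in KO and 437 to 464 in WT (2 of 3 tested members higher), with Calcr at 0 in both. Osteoblast markers, nearly all Spp1, summed to 3332 to 4610 CPM in KO and 4205 to 5105 in WT, with the bone matrix gene Ibsp at 0 in both and 1 of 3 tested members higher. Marrow stroma and adipocyte markers were at 7.18 to 10.9 CPM in KO and 11.3 to 14.2 in WT, with Lepr and Cfd at 0 in KO and Plin1 and Cfd at 0 in WT. Kitl, the 1 member tested, averaged 9.24 CPM in KO and 12.4 in WT and was not called (log2 -0.42, edgeR adjusted p = 0.0805). The osteoblast marker Bglap was at 0 in WT. Of the macrophage markers, 0 of 7 were higher and 1 was lower. The part of these cells in the differences of the 9 genes was not tested.

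**Figure D2:**
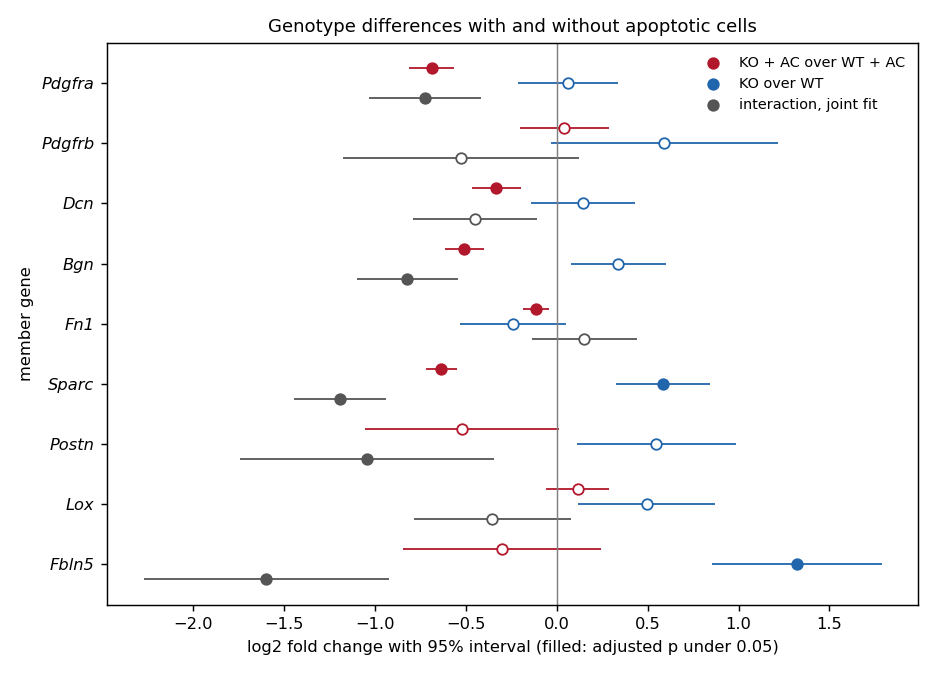
Log2 fold change of the 9 genes (x axis) with 95% intervals, for KO + AC over WT + AC (red), KO over WT (blue) and the interaction from the joint fit (grey), with filled points where the edgeR adjusted p was under 0.05. Sparc stands at -0.63 with apoptotic cells, as labelled, and at 0.58 without, and the grey point is the interaction of the joint fit, at -1.19.

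With apoptotic cells, 5 of the 9 genes were lower in the libraries labelled KO than in WT and none was called higher. Pdgfra and Sparc differed most, at 0.620 and 0.644 times the WT + AC level, followed by Bgn at 0.703, Dcn at 0.795 and Fn1 at 0.924 times. Among all 16467 genes tested 4.75% were called lower, 6.58% higher and 11.3% in either direction. The libraries of these 5 genes did not overlap, against 13.4% of all genes lying wholly lower, and none of the 9 genes lay wholly higher, against 13.0% (26.4% in either direction). The median log2 difference was -0.33 over the 9 genes and -0.02 over all genes. Kif13b goes against the label in these libraries, so the direction rests on the labels as given.

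Pdgfra had 24.1, 23.1 and 25.3 CPM in the libraries labelled KO + AC against 37.4, 37.3 and 42.3 in WT + AC. All 3 of the libraries labelled KO + AC lay below all WT + AC libraries (log2 -0.69, SE 0.06, edgeR adjusted p = 3.64e-12). Pdgfrb had 6.66, 6.22 and 7.64 CPM in KO + AC against 7.26, 6.45 and 6.22 in WT + AC, with overlapping ranges. Its log2 difference of 0.04 (95% interval -0.20 to 0.29, edgeR adjusted p = 0.887) turned to -0.0046 with library totals as the scaling, to -0.038 without KO + AC library 3 and to -0.0012 without WT + AC library 3. The receptors thus differed in their calls in the same libraries, and the difference between them was not tested. The ligand gene Pdgfa was lower in the libraries labelled KO (22.4 ± 0.555 CPM against 28.5 ± 2.50, log2 -0.34, edgeR adjusted p = 0.000193, n = 3 each), as 1 of 3 ligand genes tested, with 0 higher (median log2 -0.11).

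Both proteoglycans were lower in the libraries labelled KO. Bgn had 32.8, 31.3 and 30.5 CPM in KO + AC against 43.5, 46.2 and 44.8 in WT + AC (log2 -0.51, SE 0.05, edgeR adjusted p = 5.2e-10). Dcn had 25.0, 23.6 and 29.3 CPM in KO + AC against 32.8, 34.6 and 30.8 in WT + AC. Its libraries came closer together but did not overlap (log2 -0.33, SE 0.07, edgeR adjusted p = 0.000318), and the call ended when all 12 libraries were fitted together (log2 -0.31, edgeR adjusted p = 0.367). Of 9 other small leucine-rich proteoglycan genes 3 could be tested, with 0 called (median log2 -0.29).

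Sparc had 75.9, 68.1 and 70.4 CPM in the libraries labelled KO + AC against 106, 113 and 113 in WT + AC. The groups did not overlap (log2 -0.63, SE 0.04, edgeR adjusted p = 3.68e-16), and the call held in all 13 alternatives, with adjusted p of at most 0.000333. Fn1 had 2733, 2667 and 2451 CPM in KO + AC against 2893, 2779 and 2828 in WT + AC. Its small difference (log2 -0.11, SE 0.04, edgeR adjusted p = 0.0237) was lost in 8 alternatives, among them DESeq2 (adjusted p = 0.0693) and leaving out KO + AC library 2 (0.0526) or 3 (0.219) or WT + AC library 1 (0.126) or 3 (0.0743). Postn had 15, 19 and 21 counts in KO + AC against 35, 21 and 25 in WT + AC. At 1.08 ± 0.175 and 1.56 ± 0.439 CPM (SD, n = 3 each) no difference was detectable at this depth (log2 -0.52, 95% interval -1.05 to 0.01, edgeR adjusted p = 0.227).

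Lox had 31.9, 28.1 and 26.0 CPM in the libraries labelled KO + AC against 24.9, 24.0 and 30.4 in WT + AC. The groups overlapped because WT + AC library 3 was high, and the log2 difference was 0.12 (95% interval -0.06 to 0.29, edgeR adjusted p = 0.459, and 0.0498 without that library). Fbln5 had 16, 21 and 16 counts in KO + AC against 24, 19 and 24 in WT + AC, or 1.04 ± 0.172 and 1.29 ± 0.179 CPM. It was not called (log2 -0.30, 95% interval -0.85 to 0.24, edgeR adjusted p = 0.564).

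Some related matrix genes were lower in the libraries labelled KO, many were not called, and none in these lists was called higher. Among all genes tested, 4.75% were called lower and 6.58% higher. Fibulin and elastic fibre genes had 4 of 12 tested members lower and 0 higher (median log2 -0.24). Among them were Fbln2 (61.1 ± 0.463 CPM in KO + AC and 84.7 ± 1.24 in WT + AC, log2 -0.47, edgeR adjusted p = 4.44e-12, n = 3 each) and the latent TGF-β binding protein gene Ltbp3 (53.7 ± 1.50 and 62.7 ± 1.66 CPM, log2 -0.22, edgeR adjusted p = 0.00041). Other lysyl oxidases and procollagen processing genes had 4 of 7 lower and 0 higher (median log2 -0.37). Examples were the procollagen C-proteinase gene Bmp1 (24.5 ± 1.18 and 32.3 ± 1.87 CPM, log2 -0.40, edgeR adjusted p = 5.59e-06) and Loxl2 (6.17 ± 0.817 and 8.76 ± 0.779 CPM, log2 -0.50, edgeR adjusted p = 0.00211). Matricellular genes had 2 of 5 lower (median log2 -0.28), namely Tnc (3.05 ± 0.105 and 4.87 ± 0.491 CPM, log2 -0.67, edgeR adjusted p = 0.00189) and the matrilin gene Matn2 (1.18 ± 0.163 and 2.20 ± 0.123 CPM, log2 -0.89, edgeR adjusted p = 0.00614). None of 4 tested SPARC family genes was called (median log2 -0.19).

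Receptors and TGF-β genes did not follow one direction, where 6.58% of all tested genes were called higher and 4.75% lower. Fibronectin and periostin receptor genes had 3 of 7 higher and 1 lower (median log2 0.10). The heparan sulphate proteoglycan gene Sdc4 was higher in the libraries labelled KO (418 ± 9.52 CPM in KO + AC and 324 ± 6.91 in WT + AC, log2 0.37, edgeR adjusted p = 6.16e-12, n = 3 each), as was Itgav (338 ± 8.35 and 296 ± 6.40 CPM, log2 0.19, edgeR adjusted p = 5.02e-05). TGF-β genes had 1 of 9 higher and 2 lower (median log2 -0.02). The ligand gene Tgfb3 was lower (4.97 ± 0.454 and 7.68 ± 0.225 CPM, log2 -0.63, edgeR adjusted p = 0.000204) and Tgfb1 was higher (447 ± 14.7 and 414 ± 4.47 CPM, log2 0.11, edgeR adjusted p = 0.0185).

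Fibroblast markers outside the 9 genes were lower with apoptotic cells in the libraries labelled KO, where 4.75% of all tested genes were called lower and 6.58% higher. Their summed level was 302 to 315 CPM in KO + AC against 444 to 491 in WT + AC, and 5 of 7 tested markers were lower and 0 higher (median log2 -0.59). Smooth muscle markers summed to 35.4 to 38.9 against 39.1 to 41.4 CPM (1 of 4 lower), and mesothelial markers to 17.4 to 19.7 against 24.0 to 26.7 CPM (2 of 6 lower). Endothelial markers summed to 70.9 to 72.4 against 57.4 to 65.8 CPM, led by Vwf, with 1 of 4 higher. Osteoblast markers, nearly all Spp1, stood at 3284 to 3316 against 4711 to 4782 CPM (1 of 2 lower), with Bglap at 0 in both groups. Osteoclast markers summed to 402 to 404 against 452 to 493 CPM (3 of 4 lower), and marrow stroma and adipocyte markers to 7.19 to 8.17 against 8.84 to 9.85 CPM (0 of 3 called). Macrophage markers had 4 of 7 higher and 0 lower. T cell markers were at 28.1 to 34.7 against 34.9 to 40.2 CPM (1 of 4 lower), and at 1.31 to 2.75 in KO against 0.947 to 1.34 in WT without apoptotic cells (0 of 1 called), with Cd3d at 0 in WT. Neutrophil markers stood at 14.0 to 16.1 against 12.0 to 12.9 CPM with apoptotic cells, with Elane at 0 in WT + AC, and at 15.5 to 21.4 in KO against 16.5 to 17.6 in WT without them, with Ly6g at 0 in both and Camp at 0 in KO, and 1 member tested and not called in each genotype comparison. What part these cells had in the differences was not tested.

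**Figure D3:**
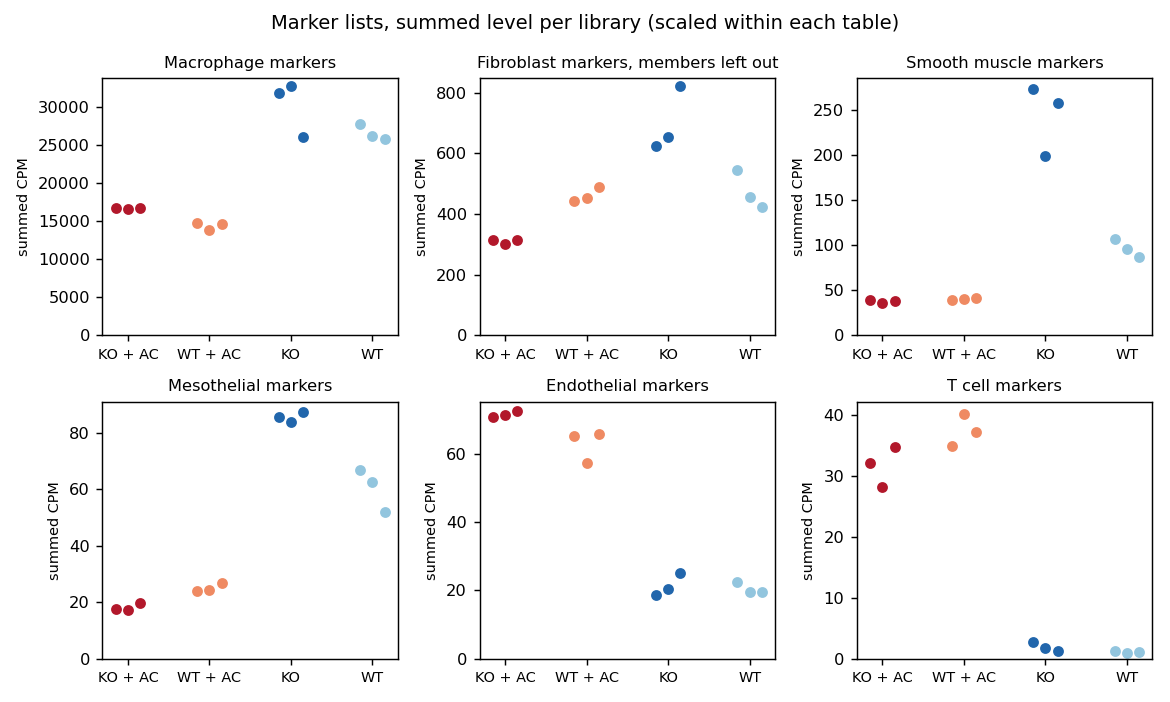
Summed scaled counts (CPM within each table, y axis) of 6 marker lists in every library, with groups KO + AC, WT + AC, KO and WT from left to right and 1 point per library. Fibroblast markers other than the 9 genes reach 302 to 315 CPM in KO + AC, 444 to 491 in WT + AC, 623 to 822 in KO and 422 to 545 in WT. Each table was scaled separately, so levels are not on one scale across the tables.

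The genotype difference changed between the conditions for 5 of the 9 genes, and each of the 5 was lower in the libraries labelled KO with apoptotic cells, relative to the difference without them. This holds for the labels as given, which Kif13b goes against with apoptotic cells. Exchanging those labels would turn the sign of the difference with apoptotic cells. Sparc and Postn would then have differences of one sign and of similar size in both conditions, with Postn called in neither separate fit. Pdgfra and Fbln5 would still differ in size between the conditions (log2 -0.69 and -0.30 as labelled with apoptotic cells, 0.06 and 1.32 without). Whether the labels were exchanged was not tested. The interaction in the joint edgeR fit was called lower for 5.13% of all 16810 genes and in either direction for 12.7%. Fbln5 had the largest interaction, at -1.60 on the log2 scale (SE 0.33, edgeR adjusted p = 0.00233), since it was 2.50-fold higher in KO without apoptotic cells and not called with them. As labelled, Sparc was called in opposite directions in the conditions, with an interaction of -1.19 (SE 0.12, edgeR adjusted p = 4.01e-07). Bgn, with an interaction of -0.82 (SE 0.13, edgeR adjusted p = 0.000305), and Pdgfra, with -0.73 (SE 0.15, edgeR adjusted p = 0.00244), were called lower with apoptotic cells and not called without them. Postn was called as well, at -1.04 (SE 0.34, edgeR adjusted p = 0.0418), although leaving out any of 10 libraries ended that call, all but KO library 2 and WT + AC library 2, with adjusted p of 0.0211 to 0.177 over all 12. With limma-voom and group weights Postn was not called either (limma-voom adjusted p = 0.055), while Fbln5, Sparc, Bgn and Pdgfra kept their calls.

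The other 4 genes were not called in the interaction. For Dcn it was -0.45 (95% interval -0.79 to -0.11, edgeR adjusted p = 0.0721), and it passed without KO library 2 (log2 -0.65, edgeR adjusted p = 0.00327). Pdgfrb gave -0.53 (95% interval -1.18 to 0.12) and Lox -0.35 (-0.79 to 0.08). Fn1 gave 0.15 (-0.14 to 0.44), was called at 0.30 without KO library 3 (edgeR adjusted p = 0.0242), and stood at -0.12, not called, with KO libraries 1 and 2 left out (edgeR adjusted p = 0.612). The median interaction was -0.73 over the 9 genes and -0.03 over all genes.

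The lists differed in how many members had a called interaction, where 5.13% of all genes were called lower. Fibulin and elastic fibre genes had 6 of 13 lower, lysyl oxidases and procollagen processing genes 4 of 7, matricellular genes 3 of 6, TGF-β genes 2 of 9, and the SPARC family (Fstl1, log2 -0.73), the PDGF ligands (Pdgfa, log2 -1.19) and the fibronectin and periostin receptors 1 each. The small leucine-rich proteoglycans had 0 of 4. Members called higher were 3 of 7 receptors and 1 of 9 TGF-β genes, against 7.55% of all genes. The fibroblast marker list outside the 9 genes had 7 of 9 lower (median log2 -1.21), the smooth muscle list 3 of 5, the osteoclast list 2 of 4 (Acp5 at -0.95 and Ctsk at -1.33) and the mesothelial list 1 of 5. Of 7 macrophage markers 2 were called higher (Adgre1 at 0.45 and Itgam at 0.47) and 0 lower. The endothelial, osteoblast, marrow stroma and adipocyte, T cell and neutrophil lists had 0 called.

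Libraries with apoptotic cells differed from those without them for all 9 genes in both genotypes, with 6 lower and 3 higher, and no group overlapped. That share is near the background, since 85.0% of all genes were called in WT + AC against WT and 86.3% in KO + AC against KO. By direction, 36.7% of genes were called lower in each comparison, against 6 of 9 here, and 48.3% and 49.6% were called higher. In WT + AC against WT 86.6% of all genes had groups that did not overlap (37.4% lower, 49.3% higher), and in KO + AC against KO 86.7% (36.6% lower, 50.1% higher). All libraries with apoptotic cells stand in one deposited table and all those without in the other, so the apoptotic cells and the table cannot be told apart. The apoptotic cells were human, while the reads were mapped to the mouse genome. Of 4 tested T cell markers, 3 were higher and 0 lower with apoptotic cells in both genotypes. How far human RNA was counted under mouse symbols was not tested. The groups held 31787 to 32801 symbols with a count in the table with apoptotic cells and 18335 to 18540 in the other. In the comparison of WT + AC with WT the median log2 difference was -0.71 over the 9 genes and 0.25 over all genes, and in KO + AC against KO it was -2.06 and 0.32.

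Among the receptors, Pdgfra was lower and Pdgfrb higher with apoptotic cells in both genotypes. In the joint scaling Pdgfra had 21.3, 20.4 and 22.4 CPM in KO + AC and 49.8, 56.1 and 67.5 in KO (log2 -1.44, edgeR adjusted p = 1.21e-12). It had 32.5, 32.5 and 36.6 CPM in WT + AC and 62.2, 53.5 and 50.7 in WT (log2 -0.71, edgeR adjusted p = 5.43e-07). A length and GC correction moved these differences to -2.55 in KO + AC against KO and -1.69 in WT + AC against WT. The same correction also turned the median of all genes negative in both comparisons, as given with Fn1 below, so a downward move is not particular to Pdgfra. Pdgfrb averaged 6.03 ± 0.660 CPM in KO + AC and 2.04 ± 0.715 in KO (log2 1.55, edgeR adjusted p = 8.07e-08, n = 3 each). In the wild type libraries it averaged 5.77 ± 0.475 CPM in WT + AC and 1.36 ± 0.446 in WT (log2 2.08, edgeR adjusted p = 1.35e-09). Of the ligand genes, Pdgfb was higher with apoptotic cells in both genotypes (log2 1.99 in KO + AC against KO and 1.63 in WT + AC against WT) and Pdgfc lower (-2.23 and -2.15), while Pdgfa was lower in KO + AC against KO (-0.32) and higher in WT + AC against WT (0.87).

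Dcn, Bgn and Sparc had the largest falls among the more abundant genes. Sparc had 67.0, 59.9 and 62.3 CPM in KO + AC and 558, 517 and 532 in KO (log2 -3.09, 0.118 times the KO level, edgeR adjusted p = 2.25e-21). It had 92.1, 98.9 and 97.9 CPM in WT + AC and 398, 342 and 333 in WT (log2 -1.89, 0.269 times, edgeR adjusted p = 4.73e-17). Every library with apoptotic cells was thus below every library without. Dcn averaged 22.9 ± 2.68 CPM in KO + AC and 151 ± 29.4 in KO (log2 -2.72), and 28.4 ± 1.76 in WT + AC and 137 ± 13.3 in WT (log2 -2.27). Bgn averaged 27.8 ± 1.02 CPM in KO + AC and 116 ± 16.1 in KO (log2 -2.06), and 38.9 ± 1.27 in WT + AC and 91.6 ± 5.38 in WT (log2 -1.23). Postn and Fbln5 were low in all groups, and their log2 differences were -2.21 and -2.12 in KO + AC against KO and -1.17 and -0.52 in WT + AC against WT. The length and GC correction moved Dcn to -3.31, Postn to -3.20 and Fbln5 to -2.89 in KO + AC against KO, and Bgn to -1.84 and Fbln5 to -1.16 in WT + AC against WT. The median of all genes moved downward with it as well. The last of the uncorrected values, Fbln5 in WT + AC against WT (edgeR adjusted p = 0.0459), was lost in 11 of 13 alternatives, among them leaving out WT library 1 (0.0847) or 2 (0.127) or WT + AC library 1 (0.0518), 2 (0.155) or 3 (0.059).

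Lox and Fn1 were on the higher side with apoptotic cells. Lox averaged 25.3 ± 2.62 CPM in KO + AC and 11.4 ± 3.06 in KO (log2 1.15, edgeR adjusted p = 4.78e-08, n = 3 each), and 22.9 ± 2.94 in WT + AC and 8.08 ± 1.31 in WT (log2 1.50, edgeR adjusted p = 7.34e-10). Fn1 averaged 2309 ± 126 CPM in KO + AC and 1056 ± 183 in KO (log2 1.13, edgeR adjusted p = 4.41e-11), and a correction for length and GC content turned this to -0.093 (edgeR adjusted p = 0.287). In the wild type libraries Fn1 averaged 2459.7 ± 45.0 CPM in WT + AC and 1249 ± 109.5 in WT (log2 0.98, edgeR adjusted p = 8.6e-10), which that correction turned to -0.23 (edgeR adjusted p = 0.0109). The direction of Fn1 with apoptotic cells therefore depends on that correction, under which the median of all genes was -0.25 in KO + AC against KO and -0.27 in WT + AC against WT. Fn1 has 11685 exonic bases, the most of the 9 genes, and Sparc the fewest at 3788.

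The related lists split between directions with apoptotic cells, against a background in which most genes were called. In KO + AC against KO, called members were 4 higher and 9 lower of 13 fibulin and elastic fibre genes, 1 and 5 of 7 lysyl oxidase and procollagen processing genes, 0 and 3 of 4 small leucine-rich proteoglycans and 2 and 4 of 6 matricellular genes. The SPARC family had 2 higher and 2 lower of 4, PDGF ligands 1 and 2 of 3, fibronectin and periostin receptors 5 and 2 of 7, and TGF-β genes 4 and 3 of 9. In WT + AC against WT, the counts were 5 higher and 2 lower of 13 fibulin and elastic fibre genes, 2 and 3 of 7 lysyl oxidase and procollagen processing genes, 0 and 3 of 4 proteoglycans and 2 and 2 of 6 matricellular genes. The SPARC family again had 2 and 2 of 4, PDGF ligands 2 and 1 of 3, receptors 5 and 1 of 7, and TGF-β genes 5 and 3 of 9. Of the 9 fibroblast markers outside the described genes, 1 was higher and 7 lower in KO + AC against KO, and 4 were higher and 4 lower in WT + AC against WT. Macrophage markers had 3 higher and 4 lower of 7 in KO + AC against KO, and 2 and 5 of 7 in WT + AC against WT.

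**Figure D4:**
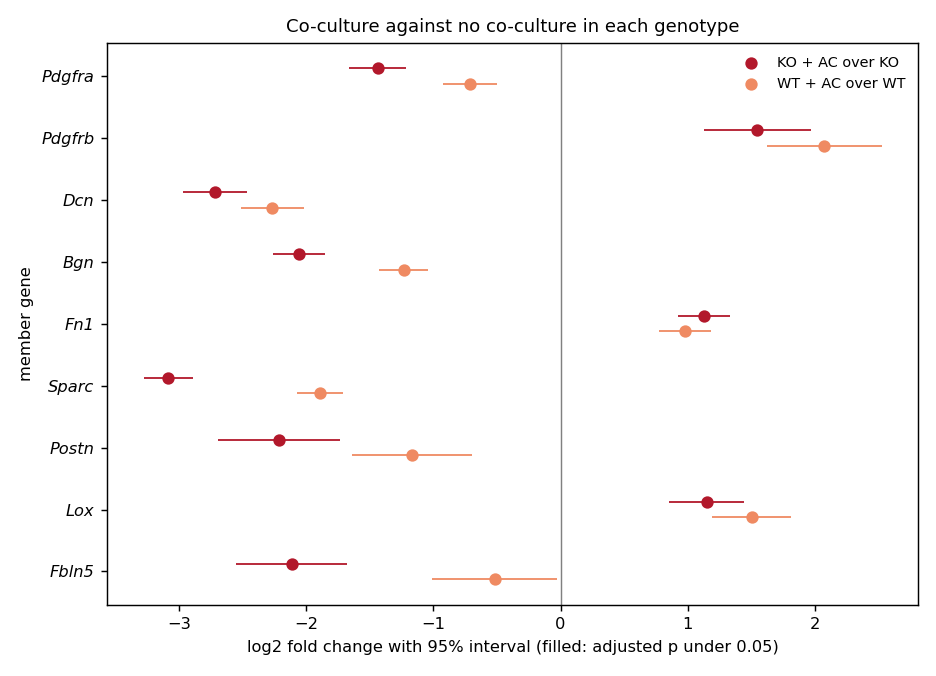
Log2 fold change of the 9 genes (x axis) with 95% intervals, for KO + AC over KO and WT + AC over WT, with filled points where the edgeR adjusted p was under 0.05. In both comparisons 6 genes lie below 0 and 3 above, and Fn1, drawn at 1.13 and 0.98, turns to -0.093 and -0.23 after a length and GC correction.

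Within groups, the libraries did not vary alike. KO library 3 was the highest of its group for 6 of the 9 genes and the lowest for 0, while KO library 2 was the lowest for 7 and the highest for 0. Among WT libraries, WT 1 was highest for 5 genes and WT 3 lowest for 6. With KO libraries 1 and 2 both left out, Sparc and Fbln5 kept their calls in KO against WT, with the 1 remaining KO library assumed to vary like the WT libraries. With the length and GC correction, 5 genes were called higher in KO (Dcn, Postn and Lox joined Sparc and Fbln5), and the joint fit of 12 libraries also called 5 (Bgn, Postn and Lox joined them). Leaving out single libraries gave 1 called gene without WT library 3 and 4 without KO library 2.

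**Figure D5:**
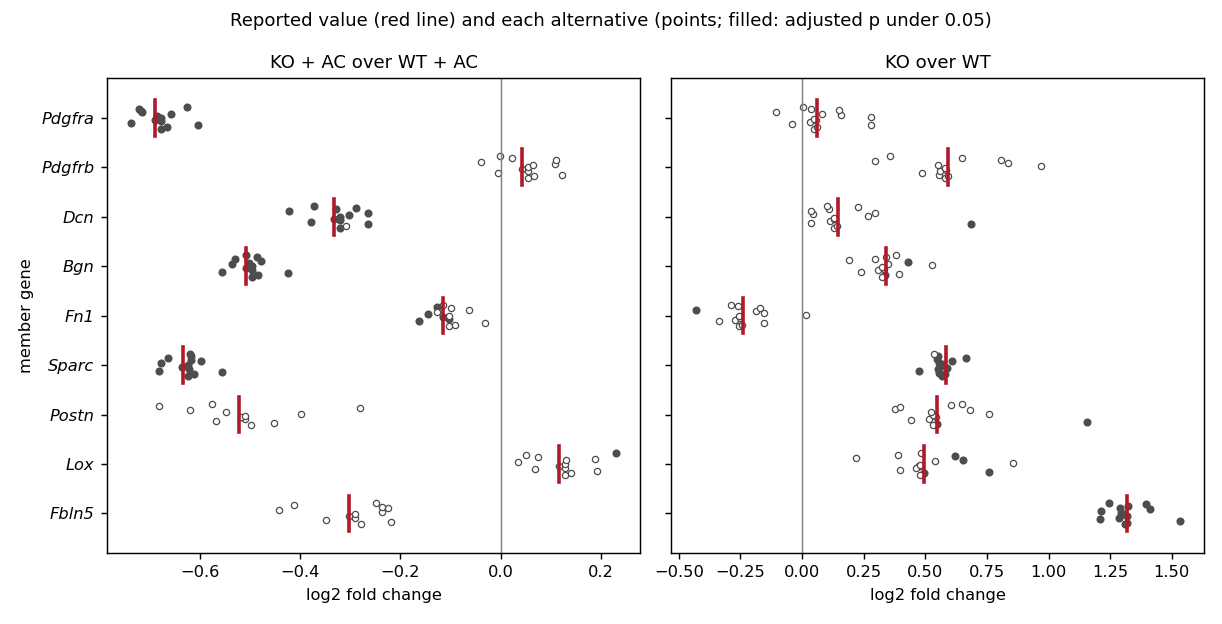
Log2 fold change of the 9 genes (x axis) in KO + AC over WT + AC and in KO over WT, with the reported value as a red line and each alternative processing as a point. Pdgfra and Fn1 in KO over WT and Pdgfrb in KO + AC over WT + AC have points on both sides of 0, and every point for Sparc lies below 0 with apoptotic cells and above 0 without.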

How the data were processed

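Raw read counts per gene symbol were deposited by the authors, 1 table for the 6 libraries without and 1 for the 6 libraries with apoptotic cells, with no normalisation. Per the submitters' processing notes, reads were handled with fastp and HISAT2 2.0.5 on the mouse genome mm10, with DESeq2 1.20.0 as a further tool. Which counter, annotation and strand option were used is not given in the sources used here.

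From these counts, genotypes were compared within a table, and the effect of apoptotic cells and the interaction came from 1 joint fit of all 12 libraries on the shared symbols. Each fit used edgeR 4.0.16 (quasi-likelihood, robust, two-sided) in R 4.3.3, after filterByExpr by group (minimum count 10) and TMM scaling, with Benjamini-Hochberg adjustment over all genes tested. Standard errors and 95% intervals were derived from the test statistic. CPM use the scaling of their own fit, so a library's values differ between the separate and joint fits. Mean Sparc was 461 CPM in KO in the separate fit and 536 in the joint fit, and 71.5 and 63.1 in KO + AC. CPM scaled within a table are therefore not on one scale across the tables. Exonic lengths and positions came from GENCODE vM21 (GRCm38) by exact symbol, and promoters from RefSeq on GRCm38.p6. The fits were also run on simulated data with known changes. Those data had equal spread in all groups and no length trend, so that run does not cover these features of the libraries.

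The 9 genes, 8 related lists (68 genes) and 10 marker lists (64 genes) were chosen with earlier results of these data known. Named besides the 9 genes were Kif13b, up to 2 called members with the smallest p of each related list in the genotype comparisons, markers at 0, and the 3 genes nearest in pattern to each of the 9 genes with at least 2 CPM in both tables. The nearest genes of Fn1 are not reported here. Other genes (the remaining PDGF ligands, single markers named beside their lists, and Fstl1 and Pdgfa beside the interaction) were named after their values were seen. Alternatives were DESeq2 1.42.0, its size factors, library totals, no filter, a replicate block, joint or separate fits, limma 3.58.1 (voom) with group weights for the interaction, and leaving out each library. A length and GC correction and a fit without KO libraries 1 and 2 were added after seeing the data.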

Additional observations from a re-analysis of the deposited data

Results flagged for a closer look

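For 5 of the 9 genes, the genotype difference with apoptotic cells differed from that without them in a test of the difference itself, the interaction of the joint edgeR fit (adjusted p under 0.05 over 16810 genes). On the log2 scale it was -0.73 for Pdgfra, -0.82 for Bgn, -1.19 for Sparc, -1.04 for Postn and -1.60 for Fbln5. In the same joint fit the genotype differences were -0.66 with apoptotic cells and 0.06 without for Pdgfra, -0.48 and 0.34 for Bgn, -0.61 and 0.58 for Sparc, -0.50 and 0.55 for Postn, and -0.28 and 1.32 for Fbln5. Libraries with and without apoptotic cells stand in separate deposited tables, so condition and table cannot be told apart. Kif13b goes against the label in the libraries labelled KO + AC, which these 5 values share. Exchanging the labels of the libraries with apoptotic cells would turn the sign of the difference there. Sparc and Postn, and to a lesser degree Bgn, would then have differences of one sign and similar size in both conditions. Pdgfra and Fbln5 would still differ in size between the conditions. Whether the labels were exchanged was not tested.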

How the results depend on the processing

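Over 664 values of the 9 genes under the alternatives, 604 kept direction and side of the threshold, 33 lost a call, 18 gained one and 9 changed sign. The number of the 9 genes called in KO against WT was 2, and became 5 in the joint fit and with the length and GC correction, and 1 to 4 leaving out single libraries. With apoptotic cells it was 5 in the libraries labelled KO against WT, 3 in the joint fit (Dcn adjusted p = 0.367, Fn1 adjusted p = 0.871) and 4 to 5 leaving out single libraries. It was 8 to 9 in WT + AC against WT and in KO + AC against KO, and 4 to 7 for the interaction, where it was 5. Sign changes in KO against WT were Pdgfra at -0.039 with library totals and -0.11 to 0.16 leaving out single libraries, and Fn1 at 0.015 without KO libraries 1 and 2. In KO + AC against WT + AC, Pdgfrb was at -0.0046 with library totals and -0.038 to 0.11 leaving out single libraries. Fn1 turned to -0.23 in WT + AC against WT and -0.093 in KO + AC against KO with the length and GC correction, and its interaction to -0.12 without KO libraries 1 and 2. The causes were not tested.

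No pairing by replicate number was seen: deviations of same-numbered libraries correlated at -0.20, -0.001 and 0.11 without and 0.02, -0.07 and -0.08 with apoptotic cells. Libraries of different numbers reached -0.25 and 0.24 without apoptotic cells, so so few correlations cannot exclude pairing. With the replicate number as a block, 3 genes were called in KO against WT (Lox was gained), 5 in KO + AC against WT + AC, 8 in WT + AC against WT, 9 in KO + AC against KO and 5 for the interaction.

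The balance of calls over all genes moved with the scaling or the tool. The called genes that were higher made up 49.1% in KO against WT, 21.9% with library totals and 82.1% with the length and GC correction. In KO + AC against WT + AC they made up 58.0%, 31.9% with library totals, 64.0% with DESeq2's size factors alone, 72.2% with DESeq2 itself, which tests fewer genes, and 86.3% with the correction. In WT + AC against WT it was 56.9%, 69.0% with library totals and 41.7% with the correction, and in KO + AC against KO 57.5%, 68.8% and 42.9%. Library totals moved the median of all genes in these last comparisons to 0.66 and 0.76. All-gene calls ranged from 95 to 4166 in KO against WT (2045 as reported), 157 to 3158 in KO + AC against WT + AC (1866) and 1043 to 4330 for the interaction (2132). DESeq2 gave no adjusted p for Postn and Fbln5 in KO + AC against WT + AC. Pdgfrb, Postn and Fbln5 had few counts in every library (at most 130, 85 and 68), so depth limits their values.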

Other observations

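For 6 of the 9 genes, those with at least 2 CPM in both tables, the genes with the most similar pattern over the 12 libraries were sought among 10101 genes, by the root mean square difference of log2 CPM after centring within each table. This is a description over 12 libraries that share their tables and depth, and no test was made. Pdgfra lay nearest to Col6a1 (0.061), a collagen VI chain, then Plxna2 (0.069) and Nedd4 (0.083), against a median of 0.31 over all genes. Sparc lay nearest to Wfs1 (0.090), Olfml3 (0.091) and Asrgl1 (0.092), against 0.34. Bgn was nearest to Raet1e (0.087), Antxr1 (0.093) and the matrix peroxidase gene Pxdn (0.098), against 0.28. For Dcn the nearest were Pbk (0.074), Aldh1a2 (0.075) and Tada2a (0.085), against 0.25. Lox was nearest to Kdr (0.13), Atp9a (0.14) and E2f8 (0.14), against 0.30.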
